A study of Rattus norvegicus with 17 samples.

Results

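The lysosomal genes described here are those for cathepsins, other soluble hydrolases, activator and transfer proteins, lysosomal membrane proteins and the subunits of the vacuolar proton pump, measured in laser captured spinal cord neurons of the rat. They were chosen by name: every probe set with a single gene symbol that was a cathepsin (Cts and a letter), an Atp6v subunit, Lamp1 or Lamp2, together with 16 further named genes: Cd63, Cd68, Hexa, Gusb, Lipa, Asah1, Npc2, Psap, Tpp1, Scarb2, Gm2a, Man2b1, Neu1, Lgmn, Rnaset2 and Laptm4a. Npc1 was also named by the rule, and no probe set carried its symbol alone. The choice gave 70 of the 31099 probe sets on the array and 55 of 14218 named genes. Of these, 54 probe sets of 46 genes passed the filter on dim signals, among 18625 probe sets tested in all.

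The samples fell into 3 groups. Regenerating neurons (n = 7) and Non-regenerating neurons (n = 7) were both axotomised, and 7 rats gave 1 sample of each: MOON265, MOON266, and the MM animals with the numbers 11, 13, 14, 16 and 17. Traced neurons (n = 3), labelled retrogradely but not axotomised, came from 3 other rats, MM18, MM19 and MM15, the last titled a high yield replicate. Each sample held 1000 labelled neurons cut from 10 µm sections of unfixed cord, and its RNA was amplified in repeated rounds before it was hybridised to 1 array. Strain, age, the kind of lesion and the time after it are not given in the sources used here. Regenerating and Non-regenerating samples were set against each other within animals, and each axotomised group was set against the Traced group between animals.

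Lysosomes are acidic organelles in which cathepsins and other hydrolases degrade proteins, lipids, sugars and nucleic acids. Acid is supplied by the vacuolar ATPase, whose V1 sector hydrolyses ATP in the cytoplasm and whose V0 sector carries protons through the membrane. Neurons depend on lysosomes to clear material returned along the axon and use the same pump to fill synaptic vesicles, while microglia and macrophages are rich in lysosomal proteases. The transcription factor TFEB is known to act on many lysosomal genes through a promoter element built on the palindrome CACGTG.

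Signals are on the linear scale of the deposited values, and differences are of log2(signal + 16), given with the standard error (SE) of limma's fit. A probe set was called where limma's p, adjusted by the method of Benjamini and Hochberg over all 18625 tested probe sets, was under 0.05. Brightness differs between probe sets for reasons unrelated to the amount of RNA, so levels were compared only within a probe set, and brightness served only to choose which probe sets stand for a gene. Median array signals were 45.2 to 76.9 in MM animals and 32.8 to 39.0 in MOON animals. The Non-regenerating MM17 array and the Traced MM15 array stood apart from the rest, with median correlations to the other arrays of 0.85 and 0.82, and their GAPDH 3′ to 5′ signal ratios of 10.0 and 11.7 were the lowest, against 20.7 to 149.97 on the other 15 arrays. Their actin 3′ to 5′ ratios, 17.9 and 11.4, lay within the range of the other 15, 7.4 to 51.8. These 2 arrays held the 2 highest signals of all 17 in 9 of the 54 member probe sets (16.7%, against 19.4% of all tested) and the 2 lowest in 10 (18.5%, against 11.6%). Where leaving both of these arrays out moved a member's difference or a median over members by over 1.5 times or turned its sign, the value without both arrays is given beside it.

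In Regenerating neurons against Traced neurons, Rnaset2, which encodes a lysosomal ribonuclease, was the only member called: it rose 2.98-fold on the scale of signal + 16. Rnaset2 signal ran from 1117 through a median of 1650.4 to 2018 on Regenerating arrays, while Traced arrays had 630, 658 and 328. The groups did not overlap, and the difference was 1.58 ± 0.25 (SE) on the log2 scale (limma, adjusted p = 0.022), with means of 1590.2 ± 273 (SD, n = 7) and 539 ± 183 (SD, n = 3). Across all tested probe sets, 0.156% were called higher and 0.0591% lower in this comparison, against 1 of 54 member probe sets higher and 0 lower. The difference was 1.26 without Traced MM15 (adjusted p = 0.143), and over the alternatives run it stayed between 1.26 and 1.97, with adjusted p from 0.000146 to 0.143. It was not called without Regenerating MM13 (1.58) or without any single Traced array, MM18 (1.72), MM19 (1.75) or MM15.

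Npc2, Ctsh, Cd68 and Ctss also lay above every Traced array in both axotomised groups, without being called. NPC2 hands cholesterol across the lysosomal lumen, cathepsin H is an aminopeptidase, cathepsin S is a protease known from antigen-presenting cells, and CD68 is a membrane glycoprotein used as a macrophage marker. Npc2 signal was 2722 to 4397 with a median of 3221 on Regenerating arrays and 2539 to 4027 with a median of 3598 on Non-regenerating arrays, against 1834, 1903 and 1089 on Traced arrays. Its differences from Traced were 1.07 ± 0.23 (limma, adjusted p = 0.068) in Regenerating and 1.11 ± 0.24 (limma, adjusted p = 0.203) in Non-regenerating neurons. Ctsh had 696, 891 and 1280.0 as its lowest, median and highest Regenerating signals and 512, 998 and 1080 as its Non-regenerating ones, against Traced signals of 497, 475 and 193. Its lowest Non-regenerating signal, on MM17, was close to the highest Traced signal, and the differences were 1.33 ± 0.28 (limma, adjusted p = 0.068) and 1.22 ± 0.31 (limma, adjusted p = 0.472).

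Cd68 signal was 328 to 998 on Regenerating arrays (median 423) and 332 to 738 on Non-regenerating arrays (median 453), against 228, 224 and 320 on Traced arrays. The gap between groups was narrow, 320 on the highest Traced array against 328 on the lowest Regenerating array. Cd68 differed from Traced by 0.77 ± 0.31 (limma, adjusted p = 0.152) in Regenerating and by 0.85 ± 0.26 (limma, adjusted p = 0.472) in Non-regenerating neurons. Ctss had Regenerating signals of 2618 to 5406 (median 3062) and Non-regenerating signals of 2450.2 to 4931 (median 3474), against Traced signals of 1695, 2232 and 2431. Here too the lowest Non-regenerating array was barely above the highest Traced one. Ctss differed from Traced by 0.71 ± 0.25 (limma, adjusted p = 0.111) in Regenerating and by 0.77 ± 0.25 (limma, adjusted p = 0.472) in Non-regenerating neurons.

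**Figure D1:**
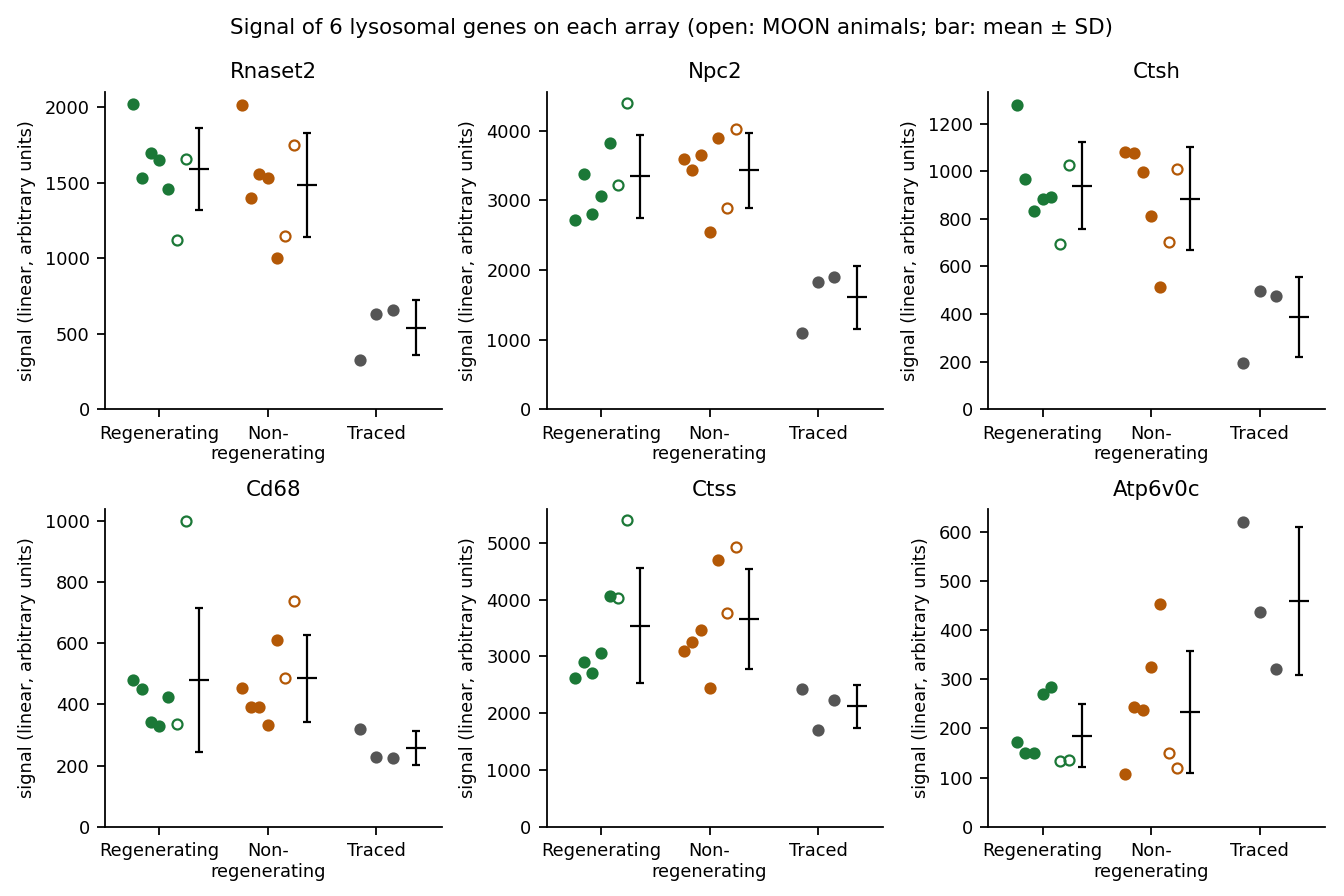
Linear signal (y axis, arbitrary units, from 0) of Rnaset2, Npc2, Ctsh, Cd68, Ctss and Atp6v0c on each Regenerating, Non-regenerating and Traced array. Points are arrays, open points MOON animals, and bars the group mean with SD. In the panels from Rnaset2 to Ctss the 3 Traced points lie below all 14 axotomised ones, and in the Atp6v0c panel they lie above all 7 Regenerating ones and among the upper Non-regenerating ones.

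These 5 genes were the members without overlap above Traced in Non-regenerating neurons, 5 of 54 probe sets against 1.1% of all tested. None lay wholly below Traced there, against 1.47% of all tested, and 0 of 54 were called by limma, against 0.043% of all tested called higher and 0% lower. In Regenerating neurons 6 of 54 lay wholly above Traced, the same 5 genes and Ctsa, against 2.35% of all tested, and 4 lay wholly below, against 9.36%. With 7 arrays against 3, the smallest p a two-sided exact permutation test can give is 0.00833. Rnaset2, Npc2 and Ctsh reached it in both comparisons, Ctss had exact permutation p = 0.0167 in both, and Cd68 had 0.0333 in Regenerating and 0.0167 in Non-regenerating neurons. Groups that do not overlap already form the most extreme arrangement on their side, so these p values restate the lack of overlap. In MM animals alone 14 members lay wholly above Traced in Regenerating (6.31% of all tested) and 9 in Non-regenerating neurons (2.04%), while 6 (11.4%) and 0 (1.94%) lay wholly below. Without both arrays that stood apart, 6 (3.28%) and 9 (4.17%) lay wholly above and 5 (11.9%) and 3 (12.2%) wholly below. The 3 in Non-regenerating neurons were Atp6v0a1 and the dimmer probe sets of Asah1 and Atp6v1b2. Both comparisons use the same 3 Traced arrays, so their values are only set side by side.

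Over 1 probe set per gene, the brightest one tested, the median difference of the 46 genes from Traced was 0.22 in Regenerating and 0.19 in Non-regenerating neurons, while the medians of 10431 tested named genes, taken the same way, were −0.04 and −0.06, and those of all tested probe sets −0.12 in each. Without both arrays that stood apart the members' medians were 0.075 and 0.16, and those of all tested probe sets −0.14 and −0.17. In Regenerating neurons 34 genes were higher and 12 lower than in Traced, and in Non-regenerating neurons 30 were higher and 16 lower. The shares with a higher mean were 46.3% and 43.9% of the named genes, and 40.8% and 38.8% of all tested probe sets. Unadjusted p was under 0.05 for 12 member probe sets higher and 7 lower in Regenerating neurons (5.98% and 17.6% of all tested), and for 7 higher and 3 lower in Non-regenerating neurons (2.68% and 7.61%). These medians depend on how arrays were scaled: with each array centred on its median, all tested probe sets moved to medians of 0.26 in Regenerating and 0.24 in Non-regenerating neurons, and the members to 0.61 and 0.55. The counts at unadjusted p under 0.05 then became 24 member probe sets higher and 2 lower in Regenerating neurons (20.4% and 7.12% of all tested), and 12 higher and 1 lower in Non-regenerating neurons (7.71% and 2.97%). Relative to the median of all tested probe sets, 37 of 46 genes were higher in Regenerating and 33 in Non-regenerating neurons at the deposited scaling. Centring cannot change these counts, as it shifts all differences of a comparison equally. After quantile normalisation they were 34 and 29.

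Most microglial and macrophage markers moved with these results. The summed signal of 17 such markers, none of them a lysosomal member, was 6441 to 12049 on Regenerating arrays (median 8118) and 7159 to 11771 on Non-regenerating arrays (median 7937), against 4061 to 4794 on Traced arrays (median 4393), so the axotomised and Traced arrays did not overlap. Of the 13 tested markers, 12 had higher means than Traced in each axotomised group, with 3 called higher in Regenerating and 1 in Non-regenerating neurons, and median differences of 0.60 and 0.89. Fcgr2b, an Fc receptor, was called in both, at 2.66 ± 0.36 in Regenerating (limma, adjusted p = 0.013) and 2.34 ± 0.34 in Non-regenerating neurons (limma, adjusted p = 0.034), whereas the defining marker Itgam had mean signals of only 2.66, 3.93 and 4.27 in Regenerating, Non-regenerating and Traced samples. Other markers too dim to be tested were split. In the same order, Cx3cr1 had means of 26.6, 32.0 and 61.2 and Tyrobp 31.5, 35.2 and 61.9, both lower than Traced. C1qb was higher, at 45.6, 40.1 and 14.2. Of 9 astrocyte markers 7 were higher than Traced in Regenerating neurons (median 0.36, 1 called) and 8 in Non-regenerating neurons (median 0.33, 0 called by limma, 4 at unadjusted p under 0.05), while their summed signals overlapped with Traced. The one called was the intermediate filament gene Gfap, with mean signals of 3116 in Regenerating and 3210 in Non-regenerating neurons against 1227 in Traced, and differences of 1.33 ± 0.22 (limma, adjusted p = 0.026) and 1.37 ± 0.24 (limma, adjusted p = 0.072). Motor neuron markers moved with the Regenerating comparison: of 5 such genes 4 were higher and 1 lower than Traced (median 1.21, 0 called by limma, 3 higher and 1 lower at unadjusted p under 0.05). They summed to 658 to 2400.3 on Regenerating and 417 to 725 on Non-regenerating arrays, against 408 to 583 on Traced arrays, and the Regenerating and Traced sums did not overlap. The 10 neuron markers summed to 16170 to 28444 on Regenerating and 14851 to 42702 on Non-regenerating arrays, against 20198 to 44812 on Traced arrays, and these ranges overlapped. The highest sums were those of Non-regenerating MM17 and Traced MM15. Of these 10 markers 2 were higher and 8 lower than Traced in each axotomised group. In each, 0 were called by limma and 1 was lower at unadjusted p under 0.05. Their medians were −0.23 in Regenerating and −0.09 in Non-regenerating neurons, against −0.12 over all tested probe sets in each. The part of other cells, or of the share of motor neurons, in the lysosomal differences was not tested, and in such bulk samples fewer cells of a type and less RNA per cell cannot be told apart.

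**Figure D2:**
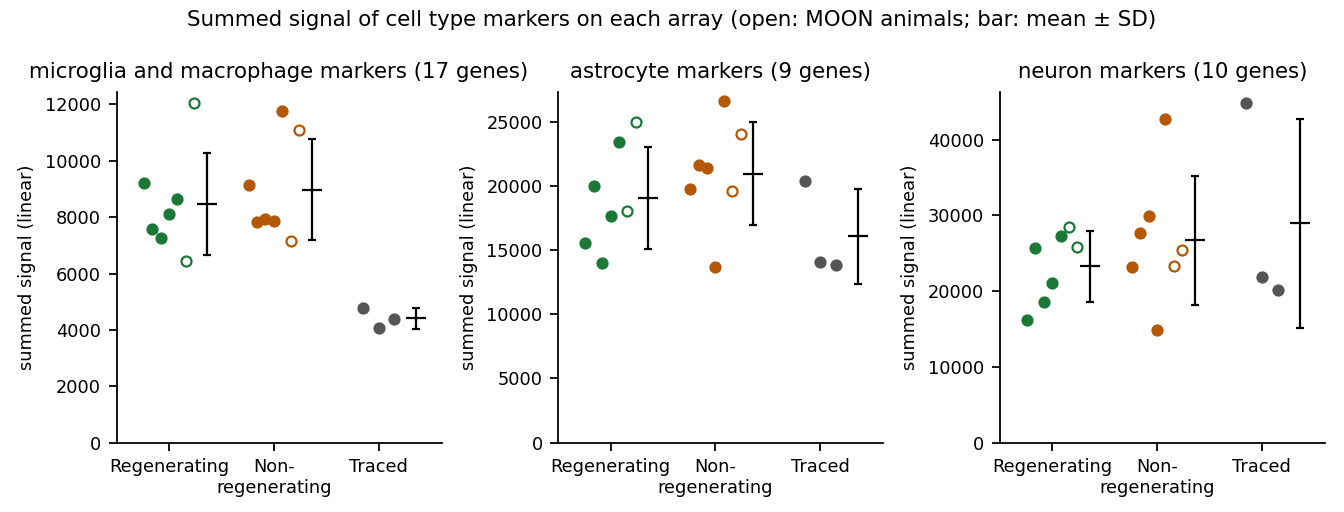
Summed linear signal (y axis, from 0) of microglia and macrophage, astrocyte and neuron markers on each Regenerating, Non-regenerating and Traced array. Points are arrays, open points MOON animals, and bars the group mean with SD. Microglia and macrophage sums lie between 4061 and 4794 on the 3 Traced arrays, below all 14 axotomised arrays, while the sums for the other types overlap between groups.

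Cathepsins as a class lay mostly above Traced. Of 17 cathepsin genes on the array 12 were tested, and 10 of these had higher means in Regenerating neurons (median 0.55) and 9 in Non-regenerating neurons (median 0.40), with 0 called by limma in either. Without both arrays that stood apart, 9 and 7 were higher, with medians of 0.34 and 0.31. Ctsa, the protective protein that shields lysosomal sialidase and galactosidase, had signals of 145 to 505 on Regenerating arrays (median 309), against 130, 143 and 74.9 on Traced arrays. The closest pair of arrays, at 145 and 143, nearly met, and the difference was 1.23 ± 0.38 (limma, adjusted p = 0.084). In MM animals alone Ctsa was called, at 1.57 ± 0.28 (limma, adjusted p = 0.0387), while over all alternatives its adjusted p ran from 0.00533 to 0.413. The endopeptidases Ctsl and Ctsb differed from Traced by 0.85 ± 0.30 and 0.65 ± 0.25 in Regenerating and by 0.68 ± 0.32 and 0.44 ± 0.30 in Non-regenerating neurons. Ctsd, the main aspartic protease of the lysosome, showed smaller differences of 0.31 ± 0.35 and 0.05 ± 0.36, and Ctse, another aspartic protease, had −0.39 ± 0.31 and −0.32 ± 0.36. Without both arrays Ctsb had 0.36 and 0.26, Ctsd 0.11 and −0.042 and Ctse −0.24 and −0.29, and after centring each array Ctse had 0.00052 and 0.041. The genes with no tested probe set were Ctsj, Ctsm, Ctsq and Ctsr, known in rodents as cathepsins of the placenta, and Ctsw, known from cytotoxic lymphocytes, whose signals reached at most 37.9 on any array.

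Among the other soluble hydrolases 7 of 8 tested genes had higher means than Traced in Regenerating neurons (median 0.71) and 6 in Non-regenerating neurons (median 0.57), Rnaset2 included. Man2b1, a mannosidase, Tpp1, a peptidase that cuts tripeptides from protein ends, and Hexa, the α subunit of hexosaminidase, differed from Traced by 0.996 ± 0.36, 0.89 ± 0.29 and 0.75 ± 0.31 in Regenerating neurons. In Non-regenerating neurons the same genes differed by 0.70 ± 0.31, 0.81 ± 0.30 and 0.58 ± 0.30, and none was called. Without both arrays the differences of Tpp1 were 0.47 and 0.43. The lipid hydrolases Lipa and Asah1, acid lipase and acid ceramidase, lay near 0 or below it, at 0.06 ± 0.25 and −0.27 ± 0.24 in Regenerating and −0.03 ± 0.22 and −0.19 ± 0.23 in Non-regenerating neurons. Without both arrays they had −0.12 and −0.16 in Regenerating and −0.18 and −0.14 in Non-regenerating neurons, and after centring all 4 values were positive. Neu1, the lysosomal sialidase, was not tested: its brighter probe set, at a geometric mean of 34.0, fell just under the filter, as did the second Man2b1 probe set at 33.4, while the dimmest members kept were those of Ctsc at 40.4 and Ctso at 43.2.

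Psap encodes the precursor of the saposins that help hydrolases reach their lipids. Its signals were 673 to 1213 on Regenerating arrays (median 1007) and 230.0 to 1675 on Non-regenerating arrays (median 956), against 898, 952 and 144 on Traced arrays. The lowest values were those of Non-regenerating MM17 and Traced MM15, and the differences from Traced were 0.92 ± 0.44 in Regenerating and 0.77 ± 0.58 in Non-regenerating neurons (limma, adjusted p = 0.22 and 0.593). Without both arrays the Psap differences were 0.072 and 0.23, and without Traced MM15 alone the second was −0.082. Gm2a, which presents ganglioside to hexosaminidase, differed by 0.01 ± 0.42 and −0.24 ± 0.44, and by −0.17 and −0.26 without both arrays.

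The membrane proteins had higher means than Traced in 6 of 6 genes in both axotomised groups, with medians of 0.22 and 0.25, and in 5 and 6 genes without both arrays that stood apart, with medians of 0.36 and 0.18. Apart from Cd68 the differences were small. Lamp1, an abundant glycoprotein of the lysosomal membrane, had signals of 2335 to 3412 on Regenerating arrays (median 2708) and 2252 to 4089 on Non-regenerating arrays (median 2397), against 2826, 2479 and 1953 on Traced arrays. All groups overlapped, and the differences from Traced were 0.22 ± 0.21 and 0.23 ± 0.25 (limma, adjusted p = 0.555 and 0.719). Lamp2 (0.15 ± 0.26 and 0.28 ± 0.25), the tetraspanin gene Cd63 (0.16 ± 0.26 and 0.15 ± 0.28) and Laptm4a (0.21 ± 0.25 and 0.22 ± 0.28) had differences near the size of their SE or smaller. Without both arrays Lamp1 had 0.076 and 0.12, Lamp2 0.42 and 0.48, Cd63 0.31 and 0.24, and Laptm4a −0.091 and 0.0059.

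Subunits of the proton pump were split in direction at the deposited scaling. Of the 8 tested V0 genes 4 were higher and 4 lower than Traced in Regenerating neurons (median −0.03), and 2 were higher and 6 lower in Non-regenerating neurons (median −0.25). Of the 9 tested V1 genes 4 were higher and 5 lower (median −0.07) in Regenerating and 5 were higher and 4 lower (median 0.02) in Non-regenerating neurons. No pump gene was called by limma, and unadjusted p was under 0.05 for 1 pump gene higher and 4 lower in Regenerating and for 0 higher and 2 lower in Non-regenerating neurons, that is 5.88% and 23.5% of 17 genes and 0% and 11.8%, against 5.98% and 17.6% and 2.68% and 7.61% of all tested probe sets. After centring each array, 12 of the 17 pump genes were higher in Regenerating and 13 in Non-regenerating neurons, against 69.2% and 69.4% of all tested probe sets. Relative to the median of all tested probe sets 11 and 9 of the 17 were higher at the deposited scaling. Centring cannot change these counts, and quantile normalisation gave 8 and 5. Without both arrays that stood apart, the V0 medians were 0.036 and −0.25 and the V1 medians 0.051 and 0.18.

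Atp6v0c, which encodes the subunit of the proton-carrying ring, was the lowest of the V0 genes relative to Traced. Its signals were 134 to 283 on Regenerating arrays (median 151) and 107 to 452 on Non-regenerating arrays (median 237), against 436, 321 and 620 on Traced arrays. Every Regenerating array lay below every Traced array, whereas Non-regenerating arrays overlapped with them. The differences were −1.25 ± 0.29 (limma, adjusted p = 0.068, exact permutation p = 0.00833) and −1.03 ± 0.39 (limma, adjusted p = 0.472), and −1.01 and −0.79 without Traced MM15. The exact p restates the lack of overlap between Regenerating and Traced arrays. Atp6v0a1, an isoform of the a subunit prominent in neurons, had signals of 38.0 to 96.7 on Regenerating arrays (median 64.9) and 29.7 to 92.1 on Non-regenerating arrays (median 56.5), against 122, 89.8 and 150.0 on Traced arrays. Both axotomised groups overlapped with the lowest Traced array, and the differences were −0.73 ± 0.28 and −0.91 ± 0.34 (limma, adjusted p = 0.141 and 0.472).

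Atp6v0d1, the subunit that joins the sectors of the pump, went the other way, with a difference from Traced of 1.43 ± 0.56 in Regenerating and 0.84 ± 0.67 in Non-regenerating neurons. Its signals were 204 to 915 on Regenerating arrays (median 591) and 42.5 to 830 on Non-regenerating arrays (median 379), against 318, 273 and 47.3 on Traced arrays. The groups overlapped widely, the 2 values under 50 being those of Non-regenerating MM17 and Traced MM15, and neither difference was called (limma, adjusted p = 0.14 and 0.615). Without both arrays the differences were 0.66 and 0.49, and without Traced MM15 alone the second was 0.072. Atp6v0e2 differed by 0.21 ± 0.22 and 0.11 ± 0.24, and by 0.033 and 0.015 without both arrays.

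In the V1 sector the catalytic subunit gene Atp6v1a, at its brighter probe set, differed from Traced by −0.57 ± 0.25 in Regenerating and −0.38 ± 0.29 in Non-regenerating neurons, and by −0.24 and −0.14 without both arrays. Its other tested probe set was closer to Traced, with differences of −0.13 and −0.0050 over all arrays. For the B subunit that pairs with the catalytic one, the 2 probe sets of Atp6v1b2 also gave unlike values. The dimmer one had 30.8 to 151 on Regenerating arrays (median 52.7) and 41.2 to 300 on Non-regenerating arrays (median 59.4), against 179, 161 and 327 on Traced arrays, with differences of −1.61 ± 0.36 (limma, adjusted p = 0.068) and −1.27 ± 0.46 (limma, adjusted p = 0.472). The brighter one had 1543 to 4374 (median 2461) and 1795 to 4030 (median 3588), against 2610, 2585 and 4171, with differences of −0.23 ± 0.31 and 0.02 ± 0.28, and of −3.2e-05 and 0.21 without both arrays. Over all arrays the dimmer one separated Regenerating from Traced and the brighter one did not, while in MM animals alone both did. Atp6v1g2 had signals of 7429 on Non-regenerating MM17 and 8064 on Traced MM15, against 1824 to 4559 on the other 15 arrays. It differed from Traced by −0.46 ± 0.35 in Regenerating and −0.14 ± 0.39 in Non-regenerating neurons, and by 0.031 and 0.18 without both arrays.

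Disagreement between probe sets recurred. Of 8 genes with 2 tested probe sets, the dimmer one had the lower difference from Traced for 7 genes in Regenerating and 6 in Non-regenerating neurons. Among those 6, the Ctsc probe sets were almost equal, at 0.3638 and 0.36427. Between Regenerating and Non-regenerating samples, where no Traced array enters, the dimmer one was likewise lower for 7 of the 8 genes. The dimmer probe set of Lgmn, an asparaginyl protease, lay below Traced by −0.93 ± 0.32 in Regenerating neurons, where its brighter one gave 0.38 ± 0.31 (0.12 without both arrays), and the dimmer one of Asah1 gave −0.75 ± 0.28, where its brighter one gave −0.27 ± 0.24. The 4 probe sets wholly below Traced in Regenerating neurons were Atp6v0a4, Atp6v0c and the dimmer probe sets of Atp6v1b2 and Lgmn, with mean Regenerating signals of 42.6, 185, 65.1 and 38.5.

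**Figure D3:**
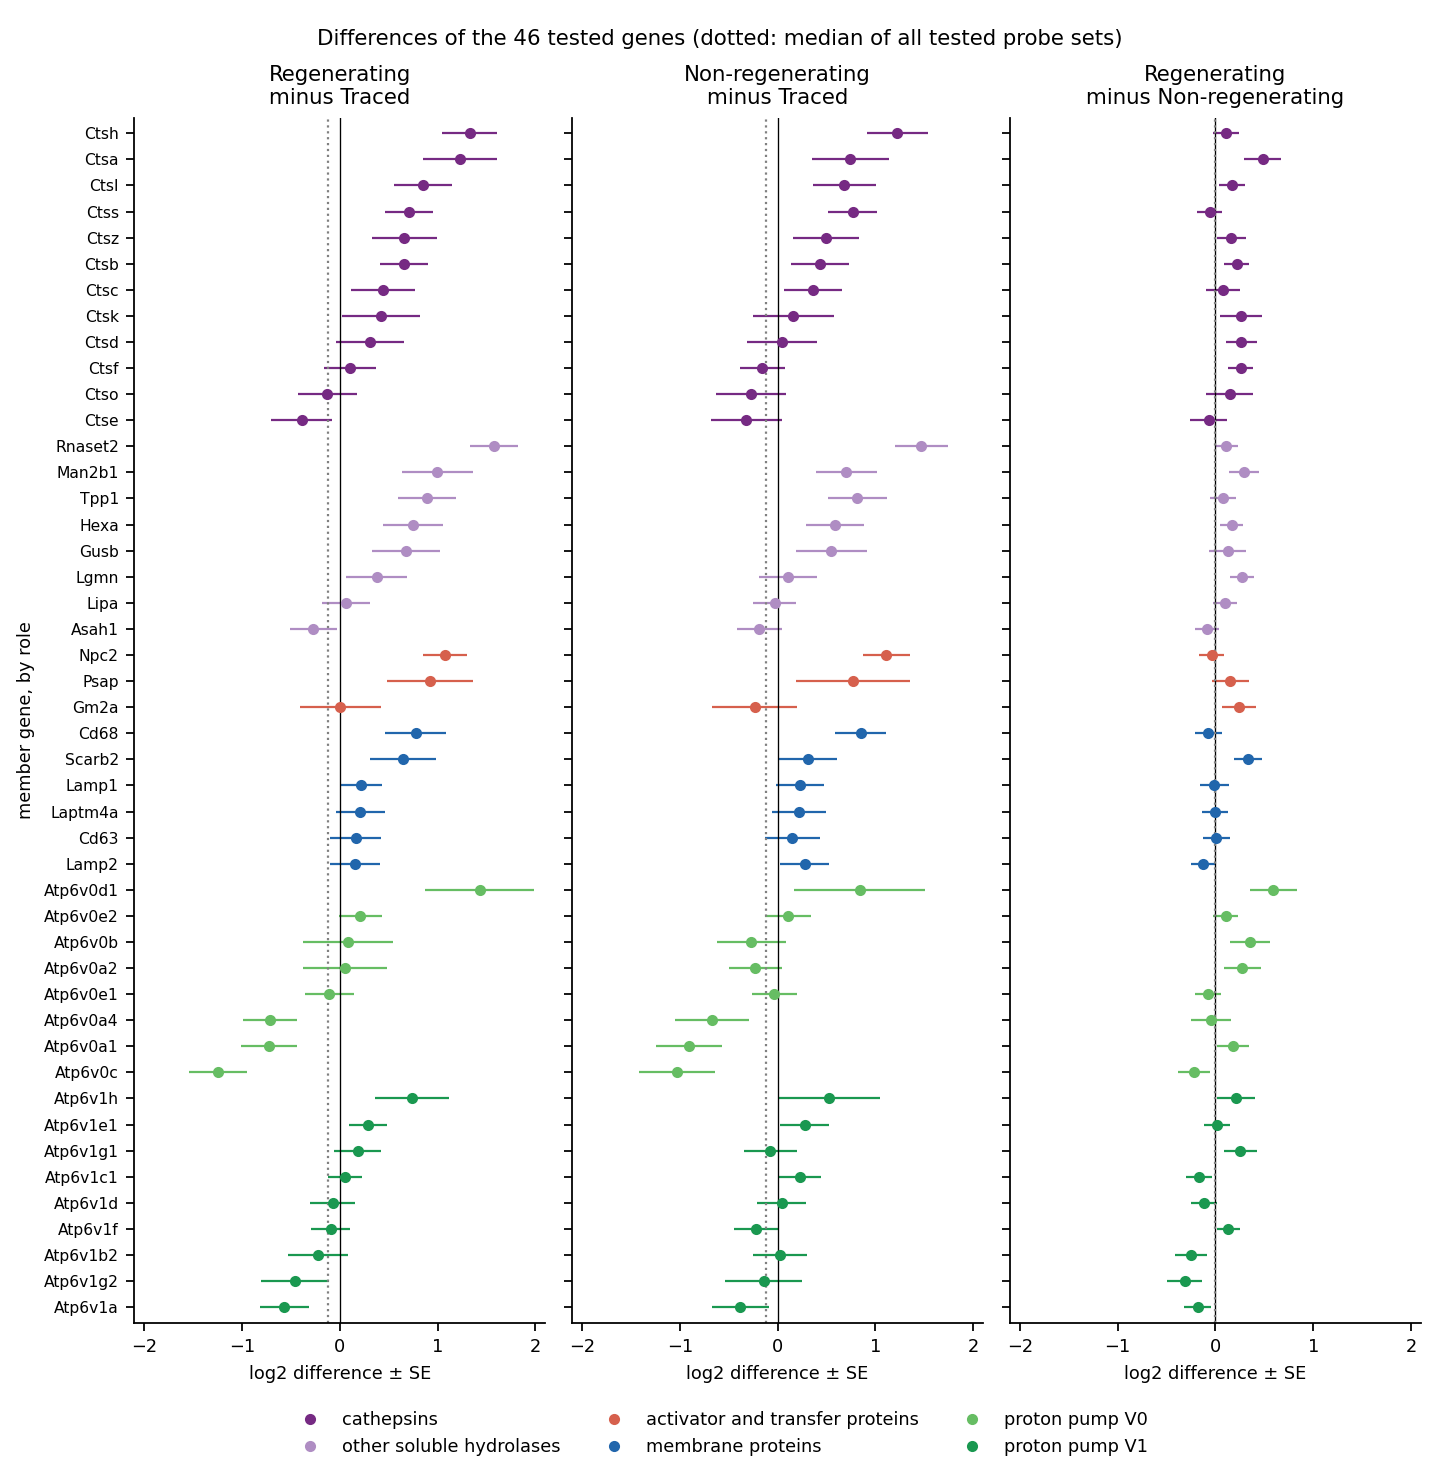
Differences of log2(signal + 16) with SE (x axis) for the 46 tested genes at their brightest probe set (y axis), coloured by role, for Regenerating minus Traced, Non-regenerating minus Traced and Regenerating minus Non-regenerating. The dotted line is the median of all 18625 tested probe sets. Rnaset2 lies farthest to the right against Traced, at 1.58 and 1.47, Atp6v0c farthest to the left, at −1.25 and −1.03, and all genes lie between −0.32 and 0.59 in the comparison of the axotomised groups.

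Promoters are shown for Rnaset2 and Npc2, the members with the smallest p against Traced, and for Lamp1 and Atp6v0d1, members that hold the palindrome associated with TFEB. The sequences run 5′ to 3′ from 250 bases before to 50 bases after the annotated start of each gene in RefSeq (rat build GRCr8), which 45 of the 55 genes could be matched to. Capitals mark CACGTG, or TCACGTGA where the longer form is present. Rnaset2 is at chr1:55133282-55133581 (plus strand), Npc2 at chr6:110149196-110149495 (minus strand), Lamp1 at chr16:83075014-83075313 (minus strand) and Atp6v0d1 at chr19:50357199-50357498 (minus strand).
Rnaset2: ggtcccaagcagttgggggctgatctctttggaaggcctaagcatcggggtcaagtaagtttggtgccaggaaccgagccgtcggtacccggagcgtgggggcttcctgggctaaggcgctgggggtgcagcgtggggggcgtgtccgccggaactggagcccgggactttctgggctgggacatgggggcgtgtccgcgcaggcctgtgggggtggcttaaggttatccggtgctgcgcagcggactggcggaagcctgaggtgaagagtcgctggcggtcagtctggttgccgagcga
Npc2: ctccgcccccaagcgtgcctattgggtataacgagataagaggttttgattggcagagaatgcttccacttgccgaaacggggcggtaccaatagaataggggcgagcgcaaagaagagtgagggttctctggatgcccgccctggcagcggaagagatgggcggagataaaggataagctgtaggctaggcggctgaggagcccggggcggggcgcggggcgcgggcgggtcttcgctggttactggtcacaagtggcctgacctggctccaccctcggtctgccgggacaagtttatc
Lamp1: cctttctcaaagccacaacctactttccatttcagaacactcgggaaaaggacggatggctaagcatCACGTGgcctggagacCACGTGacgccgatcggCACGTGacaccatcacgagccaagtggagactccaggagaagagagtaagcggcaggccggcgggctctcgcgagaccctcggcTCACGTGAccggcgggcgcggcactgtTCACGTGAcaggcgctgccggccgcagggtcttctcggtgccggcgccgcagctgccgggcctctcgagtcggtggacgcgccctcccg
Atp6v0d1: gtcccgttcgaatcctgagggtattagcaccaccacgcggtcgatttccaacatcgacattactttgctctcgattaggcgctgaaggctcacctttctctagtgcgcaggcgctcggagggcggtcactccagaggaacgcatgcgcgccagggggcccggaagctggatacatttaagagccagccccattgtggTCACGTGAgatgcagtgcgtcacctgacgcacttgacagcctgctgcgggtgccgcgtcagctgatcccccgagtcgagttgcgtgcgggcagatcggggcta
CACGTG, which reads the same on both strands, was present in 6 of the 45 member promoters (13.3%), those of Ctsd, Ctsf, Cd63, Lamp1, Atp6v0d1 and Atp6v0e1, against 6.42% of 33469 RefSeq promoters, taken without a filter on length. TCACGTGA, which contains it, was present in 4 (8.89%), against 0.777%, and the still longer palindrome that adds a G before and a C after it in 0, against 0.233%. The Lamp1 window held 5 copies of CACGTG and the Atp6v0d1 window 1, starting 52 bases before the start. The windows of Rnaset2, Npc2, Ctsh, Cd68 and Ctss, the genes that lay wholly above Traced in both axotomised groups, held none. A match is a description of these letters and not evidence of binding.

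Between Regenerating and Non-regenerating neurons no lysosomal gene was called by limma, against 0.0107% of all tested probe sets called higher and 0.00537% lower, and unadjusted p was under 0.05 for 4 member probe sets higher (4.26% of all tested) and 0 lower (2.81%). The median difference over the 46 genes was 0.11, against 0.01 over the 10431 tested named genes and −0.00 over all tested probe sets. Of the 46 genes 30 were higher and 16 lower, where 52.9% of the named genes and 49.8% of all tested probe sets were higher. Over all 54 member probe sets 32 were higher (59.3%). The median over the 46 genes was above 0 in each of the 7 animals, between 0.01 in MM11 and 0.19 in MM17. In single animals 24 to 30 of the 46 genes were higher. Medians of all tested probe sets in single animals are not given here, so these values lack a reference. Without animal MM17 the members' median was 0.042, against 0.0094 over the named genes, with 30 genes higher and 16 lower as before. By role the medians were 0.17 for cathepsins (10 higher and 2 lower), 0.12 for other hydrolases (7 and 1), 0.15 for activator and transfer proteins (2 and 1), −0.01 for membrane proteins (2 and 4), 0.14 for V0 (5 and 3) and −0.12 for V1 (4 and 5). Without animal MM17 the medians of cathepsins, activator and transfer proteins, membrane proteins and V1 were 0.082, −0.041, −0.038 and −0.071.

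Scarb2, the membrane receptor that carries glucocerebrosidase to lysosomes, and Ctsf, a cysteine protease, were higher in the Regenerating sample of all 7 animals, against 1.12% of all tested probe sets, and 0 members were lower in all 7 (0.966%). Scarb2 signal was 105 to 340 on Regenerating arrays (median 259) and 95.5 to 219 on Non-regenerating arrays (median 187). In MOON266 the pair was almost equal, at 105.3 against 104.7, and in MM11 it was widest, at 340 against 187. The difference was 0.33 ± 0.14 (limma, adjusted p = 0.681), with the smallest p that 7 pairs allow in a two-sided exact sign-flip test, 0.0156. Ctsf signal was 342 to 805 on Regenerating arrays (median 534) and 289 to 550 on Non-regenerating arrays (median 435), a difference of 0.26 ± 0.13 (limma, adjusted p = 0.697, exact sign-flip p = 0.0156). In MOON265 the Ctsf pair was nearly equal, at 356.9 against 351.3. Any probe set higher in all 7 animals has this sign-flip p, so for both genes it only restates that count. The same 2 genes, and 0 lower, made up the counts without Non-regenerating MM17 and Traced MM15 (1.95% and 1.81% of all tested). In MM animals alone, Ctsa, Atp6v0d1 and Rnaset2 joined them, giving 5 higher (5.64%) and 0 lower (4.16%).

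Ctsa was higher in the Regenerating sample of 6 of 7 animals, with signals of 145 to 505 (median 309) against 89.8 to 460 in Non-regenerating samples (median 196). The exception was MOON266, with 145 against 185, and the difference was 0.48 ± 0.19 (limma, adjusted p = 0.678). Lgmn, at its brighter probe set, was higher in 6 of 7 animals, with 635 to 1673 on Regenerating arrays (median 1184) against 533 to 1217 on Non-regenerating arrays (median 1061). MM11 was the exception, and the difference was 0.27 ± 0.12 (limma, adjusted p = 0.697).

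Atp6v0d1 had the largest difference between the axotomised groups among members, 0.59 ± 0.24 (limma, adjusted p = 0.678), and was higher in 5 of 7 animals. On the linear scale the widest pair was that of MM14, at 915 against 379. On the log2 scale MM17 gave the widest pair, with 247 in its Regenerating and 42.5 in its Non-regenerating sample. Without animal MM17 the difference was 0.33. In MM animals alone it was 0.94 ± 0.25, and in MOON animals alone −0.27 ± 0.24, so the sign differed with the name prefix, a difference that was not tested. Atp6v1g2 and the dimmer probe set of Atp6v1b2 were the V1 members with the lowest values, at −0.32 ± 0.18 and −0.33 ± 0.17 (limma, adjusted p = 0.714 and 0.697). Lower signals in the Regenerating sample were found in 4 of 7 animals for Atp6v1g2 and in 6 of 7 for Atp6v1b2. The dimmer Lamp2 probe set and the brighter Atp6v1b2 probe set followed, at −0.22 ± 0.14 and −0.25 ± 0.16, both lower in 4 of 7 animals (limma, adjusted p = 0.725 and 0.729). Without animal MM17 Atp6v1g2 had −0.19 and the dimmer Lamp2 probe set −0.14. Motor neuron markers moved with this comparison: the sum over 5 of them was 658 to 2400.3 on Regenerating arrays (median 978), against 417 to 725 on Non-regenerating arrays (median 465.5), and their part in the lysosomal differences was not tested.

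**Figure D4:**
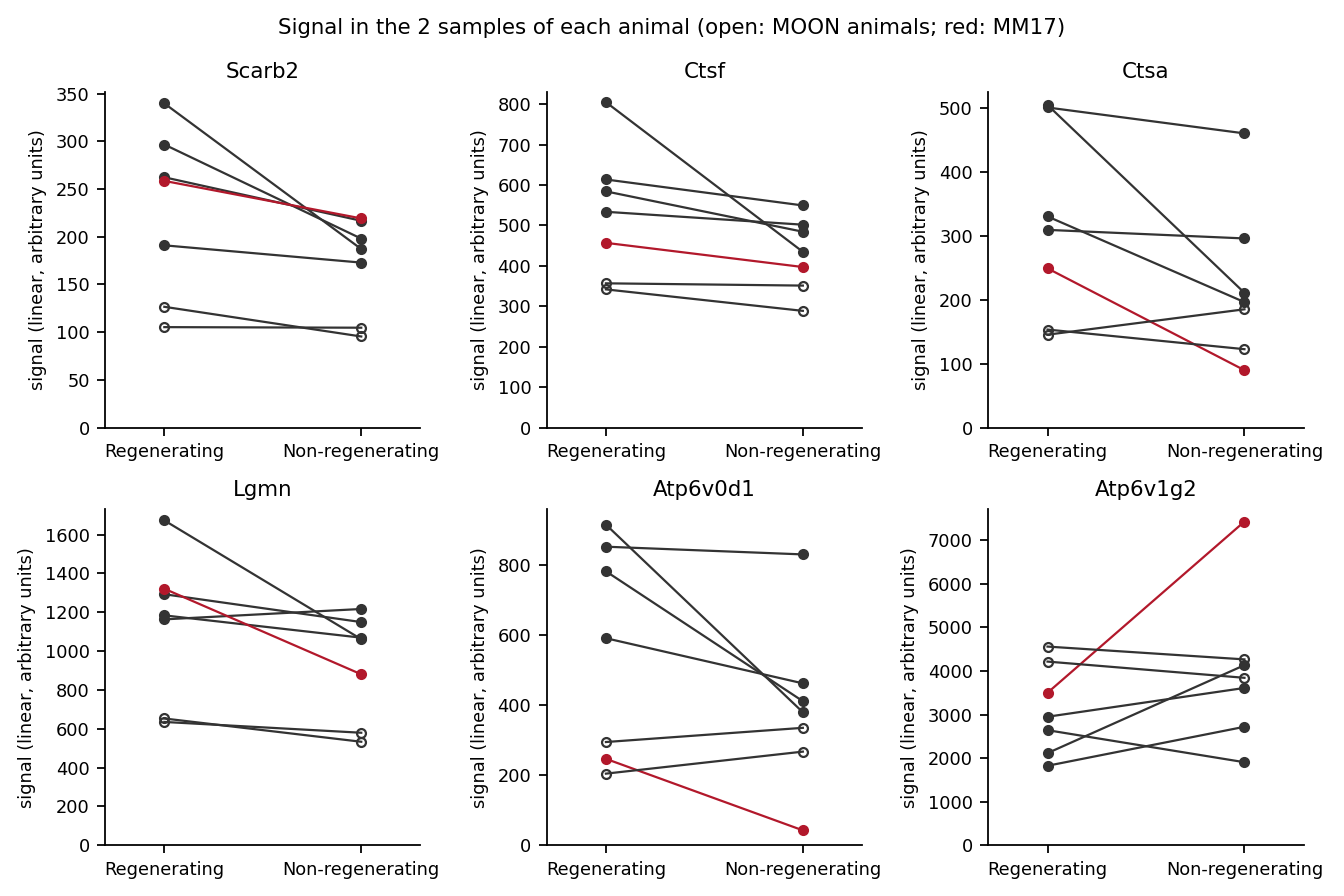
Linear signal (y axis, arbitrary units, from 0) of Scarb2, Ctsf, Ctsa, Lgmn, Atp6v0d1 and Atp6v1g2 in the Regenerating and Non-regenerating sample of each of 7 animals, joined by lines. Open points are MOON animals and red marks MM17. Scarb2 and Ctsf lines run down to the right in all 7 animals, Ctsa and Lgmn lines in 6, and the MM17 line is the steepest for Atp6v1g2, with 3499 against 7429.

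The 5 genes that lay wholly above Traced in both axotomised groups differed between them by no more than their SE. Rnaset2 differed by 0.11 ± 0.12, Npc2 by −0.04 ± 0.13, Ctsh by 0.11 ± 0.13, Cd68 by −0.07 ± 0.14 and Ctss by −0.06 ± 0.13. Higher Regenerating signals were found in 5, 3, 4, 3 and 3 of the 7 animals for these genes in turn. Without animal MM17 Rnaset2 had 0.040, Ctsh −0.0072, Cd68 −0.00093 and Ctss −0.034. By group means of linear signal, 19 of the 46 genes ran Regenerating, Non-regenerating, Traced in decreasing order, 9 ran Non-regenerating, Regenerating, Traced, and the other 18 had Traced first or in the middle.

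Among the listed genes related to the lysosome outside the set, 0 were called by limma in any comparison. Over all tested probe sets 0.156% were called higher and 0.0591% lower in Regenerating neurons against Traced. These shares were 0.043% and 0% in Non-regenerating neurons, and 0.0107% and 0.00537% between the axotomised groups. The 25 tested genes for other lysosomal proteins had medians of 0.19 in Regenerating and 0.15 in Non-regenerating neurons against Traced. Between the axotomised groups their median was 0.09. In the same order the medians of all tested named genes were −0.04, −0.06 and 0.01, and those of the 46 members 0.22, 0.19 and 0.11. Within animals, Fuca1, a fucosidase, was higher in the Regenerating sample of 7 of 7 animals (0.33 ± 0.13) and Atp6ap1, an accessory subunit of the proton pump, was lower in 7 of 7 (−0.35 ± 0.12), with limma's adjusted p = 0.678 for both. Over all tested probe sets 1.12% were higher and 0.966% lower in every animal. Of the 25 genes, 1 was higher and 1 lower at unadjusted p under 0.05 within animals, against 4.26% and 2.81% of all tested probe sets. Among 4 transcription factors of the TFEB family, 0 were called by limma in any comparison. In Regenerating neurons against Traced, 1 higher and 1 lower had unadjusted p under 0.05, against 5.98% and 17.6% of all tested probe sets. Tfeb itself had a mean signal of 24.9 in Regenerating neurons, below the level of 34.0 at which probe sets counted as dim, against 82.6 in Traced neurons, so no size is given for its difference. Mitf had mean signals of 328 against 150.2, a difference of 1.27 ± 0.41 (limma, adjusted p = 0.089). Of 2 tested cathepsin inhibitors, 1 was higher and 1 lower than Traced in each axotomised group, and 0 were called by limma. The higher one in Regenerating neurons, Cst3 (cystatin C), had a mean signal of 3181 there and 1825 in Traced neurons, a difference of 0.89 ± 0.26 (limma, adjusted p = 0.077). Of 5 lysosomal sorting genes and 13 autophagy genes 0 were called, with medians against Traced of 0.19 and 0.21 in Regenerating and −0.01 and 0.04 in Non-regenerating neurons.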

How the data were processed

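Affymetrix rat arrays were hybridised with amplified RNA of captured neurons, 1 array per sample. GCOS had turned each probe set into a linear signal intensity before the authors deposited it, per the submitters' processing notes; its version and settings are not given in the sources used here. Trimming 2% at each end left a mean of 200.0 to 200.1 per array, so whole arrays had been scaled, and the values were used as deposited. After log2(signal + 16), 57 control probe sets were left out, as were 12417 dim ones, whose mean log2 signal was under its 40th percentile (a signal of 34.0). Probe sets with a single symbol in GEO's platform annotation were named. Replicates were separate animals, and 3 Traced arrays limit precision.

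Linear models were fitted in R 4.3.3 with limma 3.58.1 (lmFit, eBayes with a trend), with the animal as a block for Regenerating against Non-regenerating samples and no covariate against Traced. The labels' animal names gave the pairing, and after group means were subtracted, both samples of an animal correlated at r = 0.34 to 0.71 over tested probe sets. Exact sign-flip or permutation tests over samples were run for single genes. Described in full were, per comparison, called members and the 4 smallest p in each direction, and the brightest probe set of each role; Ctsf, Psap, the comparisons of those members outside the one that named them, and genes given with a difference and SE alone were chosen after seeing values. The members, lists and tests were chosen with earlier results of these data known. Values without both arrays that stood apart, or under other scalings, for members not described in full and for roles were added after seeing the data. In data simulated on these arrays, 4-fold changes were called in 99% of 200 changed probe sets within animals, 79% for Non-regenerating and 85.5% for Regenerating against Traced, and 2-fold changes in 77%, 0% and 0%.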

Additional observations from a re-analysis of the deposited data

Results flagged for a closer look

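In groups of 7 arrays, a gap between the extreme array and its nearest neighbour of over 0.568 of the group's range (Dixon's criterion) was looked for in 19 member probe sets described in full, 38 groups in all, and chance flags about 1 in 20 groups. It was found 2 times. Cd68 had a signal of 998.3 in Regenerating MOON266, against 328 to 480.2 on the other 6 Regenerating arrays. Atp6v0d1 had a signal of 42.5 in Non-regenerating MM17, against 267.1 to 829.8 on the other 6 Non-regenerating arrays.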

How the results depend on the processing

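Within animals, 0 members were called under every alternative run. Without the replicate block the median was 0.11 and 0 members had unadjusted p under 0.05. The within-animal median was 0.042 without Non-regenerating MM17 and Traced MM15, and 0.042 to 0.14 leaving out animals in turn, the lowest without MM17.
Against Traced, members called in Non-regenerating neurons numbered 8 higher and 3 lower with array weights and 2 higher in 1 fit over all 17 arrays, and 0 to 1 higher leaving out arrays in turn (Rnaset2 without Non-regenerating MM17). In Regenerating neurons 15 higher and 3 lower were called with array weights, 6 higher with quantile normalisation or centring, 3 higher and 2 lower with an offset of 64, 2 higher in MM animals alone, 5 higher with the name prefix as a term, and 0 without the 2 arrays that stood apart. Leaving out arrays in turn gave 0 to 3 higher (0 without Regenerating MM13 or any 1 Traced array, 3 without Regenerating MM17) and 0 to 2 lower. The median was 0.55 in Non-regenerating and 0.61 in Regenerating neurons after centring, and 0.41 in Regenerating neurons in MM animals alone or with the prefix term. Leaving out arrays in turn it ran from 0.075 (without Traced MM15) to 0.33 in Regenerating and from 0.11 (without Traced MM15) to 0.26 in Non-regenerating neurons.
Signs turned only for differences that were not called. Between the axotomised groups, Npc2, Ctss and Lamp1 were 0.13, 0.10 and 0.13 with quantile normalisation, and Lamp1 was 0.020 after centring. In MOON animals alone Ctsa was −0.014, Atp6v0d1 −0.27, Rnaset2 −0.060, Atp6v1g2 0.11, the dimmer Lamp2 probe set 0.082, the brighter Atp6v1b2 one 0.13, Npc2 0.14, Ctss 0.12 and Lamp1 0.027. Leaving out animals in turn, Npc2 ran from −0.091 to 0.021 and Lamp1 from −0.099 to 0.087. For Non-regenerating against Traced, Atp6v0e2 was −0.048 with quantile normalisation, −0.022 in MM animals alone or with the prefix term, and −0.071 to 0.23 leaving out arrays; Atp6v1g2 was 0.22 after centring, 0.21 with weights, 0.18 without both arrays, and −0.39 to 0.35 leaving out arrays. For Regenerating against Traced, Atp6v1g2 was 0.031 without both arrays and −0.71 to 0.031 leaving out arrays. The cause was not tested.
The 3 Traced arrays limit both comparisons with them, no sample was traced in MOON animals, and 1 probe set often stands for a gene.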
